A study of Mus musculus with 24 samples.

Results

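The genes described here are 8 mouse genes of lipid uptake and storage, Cd36, Lpl, Msr1, Fabp4, Fabp5, Pparg, Plin2 and Lipa. They were taken by symbol from a table of normalized expression, in which each of the 8 names matched 1 of 16996 genes. RNA-seq was performed on CD45+ tumor-immune cells of 24 female Balb/c mice of wild-type genotype, aged 10 to 12 weeks, with 1 library per mouse. All mice, controls included, carried EMT6-hHER2 tumors, which a single-cell clone of a murine breast cancer line expressing human HER2 formed after injection into the mammary fat pad. Tumors of 80 mm3 were left untreated (6 mice) or received 1 intravenous dose of trastuzumab, an antibody against HER2 (20 mg/kg, 6 mice), of T-DM1, trastuzumab carrying a microtubule poison (15 mg/kg, 6 mice), or of T-PNU, trastuzumab carrying an anthracycline derivative (1 mg/kg, 6 mice). Tumors were harvested 10 days later, when those of the T-PNU cohort had shrunk, and CD45-positive cells were enriched on magnetic beads. The study describes some T-PNU samples as high-responding and others as low-responding, and all 6 were kept as 1 group here.

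Macrophages take up fatty acids and lipoproteins, store the surplus in lipid droplets and break lipoprotein lipids down in lysosomes. Cd36 is a membrane receptor for long-chain fatty acids and oxidized lipoproteins, Lpl is the secreted lipase that frees fatty acids from triglycerides of lipoproteins, and Msr1 is the class A scavenger receptor that takes up modified lipoproteins. Fabp4 and Fabp5 carry fatty acids in the cytosol, Plin2 coats lipid droplets, and Lipa is the lysosomal acid lipase. Pparg is a nuclear receptor activated by fatty acids. It binds DNA together with a retinoid X receptor at paired copies of a short core motif, and Cd36, Fabp4, Lpl and Plin2 are textbook targets of it. Adipocytes and endothelial cells use several of these genes too, and bulk RNA does not separate a change in the number of such cells from a change in RNA per cell.

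The promoters of the called genes that had an entry in the RefSeq table are shown because Pparg motifs could be sought in them. Of the 8 genes, 4 had an entry (Plin2, Cd36, Lipa and Pparg). Each sequence holds the 250 bases before the RefSeq start on build GRCm38.p6, 5′ to 3′ on the strand of the gene, and capitals mark motif matches. Plin2 is on the minus strand at chr4:86670060-86670309, Cd36 on the minus strand at chr5:17835897-17836146, and Lipa on the minus strand at chr19:34527475-34527724.
Plin2: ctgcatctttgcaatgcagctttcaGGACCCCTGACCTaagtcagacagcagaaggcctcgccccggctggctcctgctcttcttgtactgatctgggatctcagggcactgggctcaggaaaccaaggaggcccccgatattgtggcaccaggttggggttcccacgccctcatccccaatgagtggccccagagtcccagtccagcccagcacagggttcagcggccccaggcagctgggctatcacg
Cd36: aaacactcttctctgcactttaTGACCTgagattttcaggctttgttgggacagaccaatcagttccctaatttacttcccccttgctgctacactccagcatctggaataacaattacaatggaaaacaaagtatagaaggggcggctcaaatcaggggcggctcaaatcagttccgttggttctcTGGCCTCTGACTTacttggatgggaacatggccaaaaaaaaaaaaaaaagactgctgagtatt
Lipa: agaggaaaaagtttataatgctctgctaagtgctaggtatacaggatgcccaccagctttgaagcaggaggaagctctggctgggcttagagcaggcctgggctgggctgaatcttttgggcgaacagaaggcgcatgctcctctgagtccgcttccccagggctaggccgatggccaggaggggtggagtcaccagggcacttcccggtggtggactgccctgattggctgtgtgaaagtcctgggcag
The motifs searched on both strands were the core AGGTCA without mismatch, and its direct repeat with 1 base of any kind between the copies (DR1), with up to 2 mismatches in 12 fixed bases. The window searched ran to 50 bases after the start. Positions from the start are those of the first base of a match on the strand of the gene, as printed. Plin2 held a DR1 match with 2 mismatches at -225, read AGGTCAGGGGTCC on the opposite strand, which overlapped the exact core match at -218. Cd36 held an exact core match at -228 and a DR1 match with 2 mismatches at -63, read AAGTCAGAGGCCA on the opposite strand. The Lipa window held neither. Among the Pparg entries, which are not shown, separate entries held an exact core match at -28 and at -9, a further entry held none, and no DR1 match was found. Among 32851 promoters of the same length, 16.3% held the core and 3.86% a DR1 match, and a match is a description of letters only.

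All 8 genes are protein coding in GENCODE M21 on GRCm38. Fabp4 lies at chr3:10204088-10208576 on the minus strand, not far from Fabp5 at chr3:10012548-10016607 on the plus strand. Cd36 spans chr5:17781690-17888801 on the minus strand, so the RefSeq start used above lies inside the longer GENCODE gene. Lpl lies at chr8:68880491-68907448 on the plus strand and Msr1 at chr8:39581685-39642673 on the minus strand. Pparg spans chr6:115360951-115490399 on the plus strand, Plin2 chr4:86648386-86670060 and Lipa chr19:34492318-34527474, both on the minus strand. Of the 81-base stretches of their transcripts, the length of the reads, 2.72% of those of Fabp5, 0.659% of Plin2 and 0.135% of Lpl also occurred in other genes, and none of those of the other 5 genes did. For Fabp5 the sharing genes were Gm14328 and Gm6166 and for Plin2 Gm12551, so reads from those stretches are uncertain.

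Values are log2 expression normalized by the authors, and the transformation behind them is not given in the sources used here. Counts were not recovered, so the depth of each sample is unknown. Sample medians over all genes ran only from 8.73 to 8.87, and Ptprc, which encodes CD45, was between 14.0 and 15.5 in every sample. The heatmaps of the study leave out 4 mice, B1 and C1 of the untreated and E2 and B3 of the trastuzumab group. Calls of the 8 genes and counts of called list genes that changed without them are therefore also given for the other 20 samples. The untreated group holds the highest value of most of these genes. Untreated C1 was the highest untreated sample for 8 of 8 genes and the highest of all 24 for 7. Untreated B1 was the lowest untreated sample for 7 genes and the lowest of all 24 for 3, while T-DM1 E3 was the lowest of all 24 for 5. Untreated C1 and B1 also bounded the macrophage genes, whose mean was 14.68 in C1 and 12.97 in B1 and between 13.81 and 14.07 in the other 4 untreated mice.

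**Figure D1:**
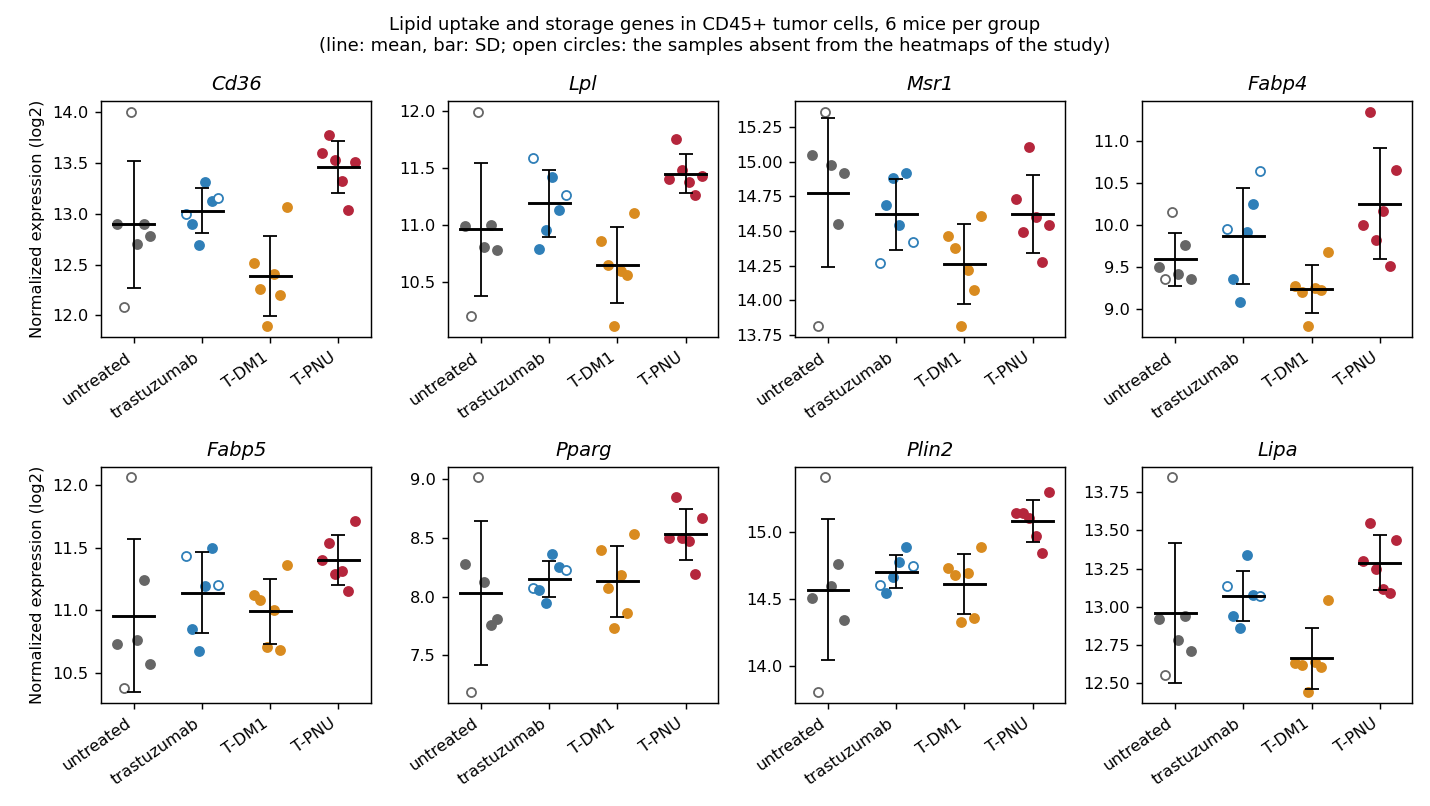
Normalized expression (log2, y axis) of the 8 genes in the 4 groups (x axis), 1 point per mouse with the group mean (line) and SD (bar, n = 6), where open circles are the samples absent from the heatmaps of the study. T-PNU has the highest group mean for all but Msr1, and 1 untreated mouse, C1, lies above the other 5 for every gene.

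The genes differed widely in level. After division by the length of their exons, the mean over 24 samples on the log2 scale per kb was 12.9 for Plin2, 11.9 for Msr1, 11.1 for Cd36, 10.2 for Lipa and 9.29 for Fabp5, followed by 7.68 for Lpl, 7.57 for Fabp4 and 6.65 for Pparg. Lpl and Fabp4 differed by less than the SD over samples of either gene, which was 0.46 for Lpl and 0.59 for Fabp4. With the longest transcript in place of all exons, Plin2 stood at 13.8, Msr1 at 12.7, Cd36 at 11.18, Lipa at 11.03, Fabp5 at 9.43, Lpl at 9.02, Fabp4 at 7.65 and Pparg at 7.12, in the same order. Before division by length, Plin2 and Msr1 were above 98% of all genes, at percentiles 99.2 and 99.0, and Pparg was at percentile 44.2.

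T-PNU was first compared with T-DM1, the other conjugate of the same antibody. All 8 genes had a higher mean in T-PNU samples, with a median difference of 0.55 on the log2 scale against 0.030 over all genes. Fabp4, Lpl, Cd36, Plin2 and Lipa rose, 5 of 8 genes at an adjusted p under 0.05 (limma, adjusted over all genes), where 12.4% of all genes were called higher. None fell. Fabp5, Pparg and Msr1 did not pass the test. With the 20 samples, whose T-PNU and T-DM1 mice are the same but which share a smaller estimate of the spread, 8 of 8 passed, where 19.8% of all genes were called higher. With the thresholds of the study, a false discovery rate under 0.01 and more than a 2-fold change, Cd36 and Fabp4 were called, where 0.188% of all genes passed both in the higher direction.

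Among the uptake genes, Cd36 ran in T-DM1 samples from 11.89 through a median of 12.33 to 13.07, and in T-PNU samples from 13.04 through 13.52 to 13.78. The groups overlapped through T-DM1 H3, and 5 of 6 T-PNU mice were above every T-DM1 mouse. The means of 13.46 ± 0.25 and 12.39 ± 0.39 (SD, n = 6) differed by 1.07 (SE 0.22), or 2.10-fold (limma, adjusted p = 0.00241). Lpl ran from 10.11 through 10.62 to 11.11 in T-DM1 and from 11.26 through 11.42 to 11.76 in T-PNU samples, with no overlap. Lpl and Lipa were the only members without overlap, where 5.45% of all genes lay entirely higher in T-PNU. The Lpl difference was 0.80 (SE 0.20), or 1.75-fold (limma, adjusted p = 0.00712). Msr1, the scavenger receptor, ran from 13.81 through 14.30 to 14.61 in T-DM1 and from 14.27 through 14.57 to 15.10 in T-PNU samples. Its groups overlapped broadly, and the difference of 0.36 (95% interval -0.044 to 0.77) did not pass the test (limma, adjusted p = 0.16), but passed with 20 samples (adjusted p = 0.0436).

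Among the fatty acid carriers, Fabp4 ran from 8.79 through 9.24 to 9.68 in T-DM1 and from 9.51 through 10.08 to 11.35 in T-PNU samples. T-PNU H1 was the highest of all 24 mice, and only T-PNU C2 was below a T-DM1 mouse. The difference was 1.02 (SE 0.26), or 2.02-fold (limma, adjusted p = 0.00782), and 0.80 without H1. Fabp5 ran from 10.68 through 11.04 to 11.36 in T-DM1 and from 11.16 through 11.36 to 11.71 in T-PNU samples. It overlapped more than Fabp4, and its difference of 0.41 (95% interval -0.021 to 0.84) did not pass the test (limma, adjusted p = 0.134), but passed with 20 samples (adjusted p = 0.0322).

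Pparg ran from 7.74 through 8.13 to 8.53 in T-DM1 and from 8.19 through 8.50 to 8.84 in T-PNU samples. Only 2 of 6 T-PNU mice were above every T-DM1 mouse, and the difference of 0.40 (95% interval -0.018 to 0.82) did not pass the test (limma, adjusted p = 0.132), but passed with 20 samples (adjusted p = 0.0277). Plin2, the droplet coat, ran from 14.32 through 14.69 to 14.89 in T-DM1 and from 14.84 through 15.12 to 15.30 in T-PNU samples. All T-PNU mice but C2 were above every T-DM1 mouse. Its difference of 0.47 (SE 0.17), or 1.38-fold, was close to the threshold (limma, adjusted p = 0.0385). The Plin2 call was lost in 8 of 24 fits that left out 1 mouse, namely T-DM1 D3, E3, F3 or G3 or T-PNU G1, H1, A2 or D2, with adjusted p-values up to 0.0827.

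Lipa, the lysosomal lipase, ran from 12.44 through 12.62 to 13.04 in T-DM1 and from 13.09 through 13.27 to 13.55 in T-PNU samples. The groups did not overlap, although T-DM1 H3 came close to T-PNU C2. The means of 13.29 ± 0.18 and 12.66 ± 0.20 (SD, n = 6) differed by 0.63 (SE 0.15), or 1.54-fold (limma, adjusted p = 0.00574). The same mice set the edges of the groups for most of these genes. T-PNU C2 was the lowest T-PNU sample for 8 of 8 genes, T-DM1 H3 the highest T-DM1 sample for 8 and T-DM1 E3 the lowest for 7.

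**Figure D2:**
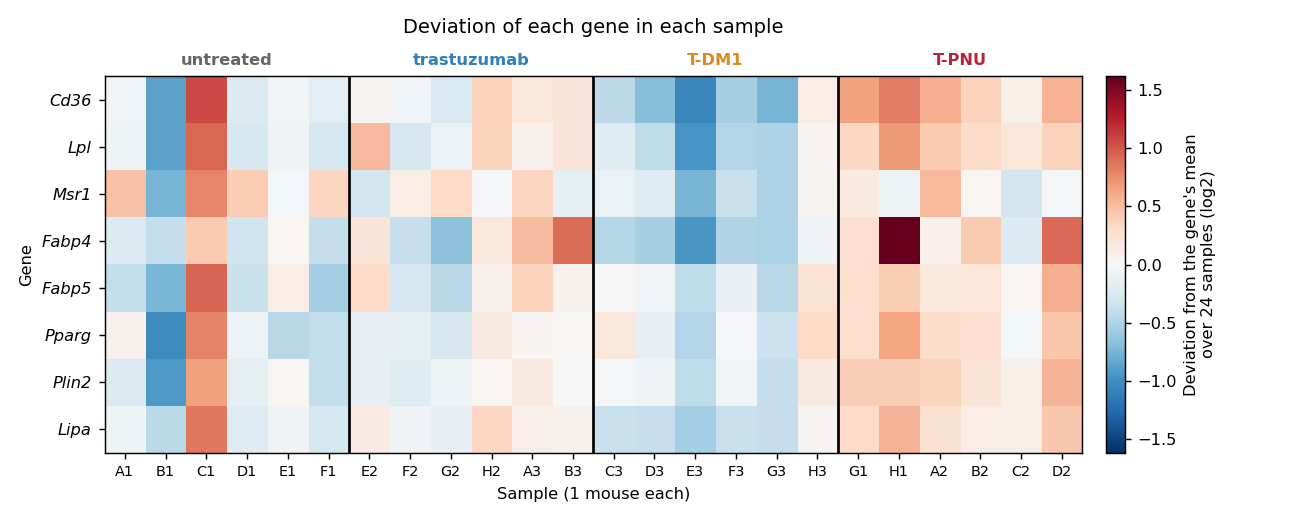
Deviation of each gene (rows) in each mouse (columns, ordered by group) from the mean of that gene over 24 samples, as a color on the log2 scale from blue (lower) to red (higher). Untreated C1 (mean deviation 0.81) is red and untreated B1 (-0.75) blue in every row. T-DM1 samples other than H3 are mostly blue and T-PNU samples mostly red, with the lowest mean deviation of the T-PNU samples in C2 (-0.0030).

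Cell type markers were read beside these differences. The mean of 10 macrophage and monocyte genes ran from 13.27 to 13.84 in T-DM1 and from 13.79 to 14.35 in T-PNU samples. Of the 10 genes, 5 rose, led by Mertk (0.93), a receptor for the uptake of dying cells, and Adgre1 (0.86), which encodes the macrophage antigen F4/80, with a median of 0.58 over the list. Of 8 endothelial genes, 5 rose (median 0.66), led by Emcn (0.75) and Pecam1 (0.72), and the list mean ran from 8.05 to 8.90 in T-DM1 and from 8.86 to 9.48 in T-PNU samples. Of 9 genes of non-immune tumor and stromal cells, 7 fell, led by Col1a1 (-1.62) and Pdgfrb (-1.57), while Epcam rose (0.84), and the list mean ran from 12.34 to 12.65 in T-DM1 and from 10.90 to 12.09 in T-PNU samples. The part of these lists in the results was not tested.

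The remaining marker lists were read in the same way. Of 4 measured genes of alveolar macrophages and eosinophils, 3 rose (Siglecf by 0.46 and Prg2 by 0.43 among them), all from levels under 5 on the log2 scale, while Krt79 and Epx had no values here. Of 5 neutrophil genes, Retnlg rose (0.84). None of 7 T cell genes and none of 6 B cell genes passed the test (limma), although their median differences of 0.90 and 1.02 were larger than those of the macrophage and endothelial lists. Mice within a group spread by more than this, from 8.32 to 10.67 for the T cell mean in T-DM1 and from 9.27 to 11.69 in T-PNU. With the 20 samples, 8 of 10 macrophage genes, 3 of 5 neutrophil genes and 1 of 7 T cell genes were called higher (limma). No B cell gene was, and 19.8% of all genes were called higher. Adipocytes share Fabp4, Lpl, Cd36 and Pparg with macrophages. Their defining genes Adipoq (3.04), Cfd (3.35) and Retn (2.97) stood at percentiles 8.15, 10.9 and 7.55 of all genes, did not pass the test, and Plin1, Cidea, Lep, Adrb3 and Pck1 had no values here.

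Because macrophage genes moved with these genes, every value was also taken relative to the mean of the 10 macrophage genes of the same sample, an alternative chosen after seeing the data. That mean was itself 0.53 higher in T-PNU than in T-DM1 samples, so the difference of every gene is lower by that amount on this scale. On this relative scale Cd36 remained higher in T-PNU by 0.54 (95% interval 0.24 to 0.85) and was the only gene of the 8 called (limma, adjusted p = 0.00478), where 0.229% of all genes were called higher. Fabp4 was higher by 0.49 (-0.064 to 1.04), Lpl by 0.28 (-0.030 to 0.58) and Lipa by 0.098 (-0.20 to 0.39), and none passed the test. Plin2 (-0.060), Fabp5 (-0.12), Pparg (-0.13) and Msr1 (-0.16) had differences below 0 on that scale, none of which passed the test.

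**Figure D3:**
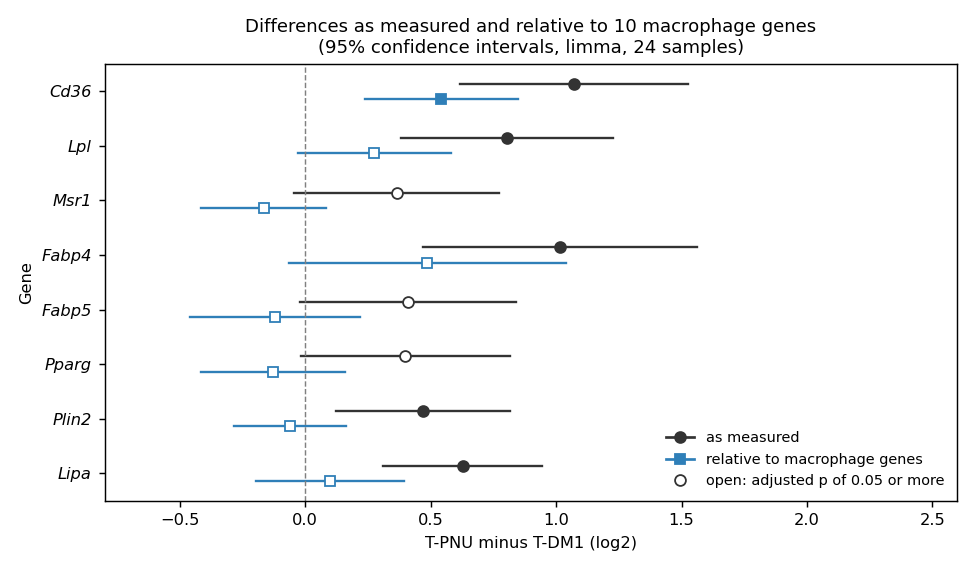
Difference between T-PNU and T-DM1 samples (x axis, log2) for each gene (y axis), as measured (black circles) and relative to the mean of 10 macrophage genes of the same sample (blue squares), with 95% confidence intervals from 24 samples; filled symbols passed an adjusted p of 0.05. As measured, 5 genes passed, and on the relative scale Cd36 alone did (0.54).

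T-PNU was next compared with untreated tumors. The mean was higher in T-PNU for 7 of 8 genes, with a median difference of 0.49 against 0.0080 over all genes, but none passed the test (limma), where 0.188% of all genes were called in either direction. At an unadjusted p under 0.05, 7 of the 8 genes were past the threshold, as were 9.74% of all genes in the higher direction. This outcome turned on the untreated group. Without untreated C1 alone, 6 genes (Fabp5, Lpl, Cd36, Pparg, Plin2 and Lipa) were called, where 7.55% of all genes were called higher, and calls over all genes in either direction went from 32 to 2929. With the 20 samples, 7 of 8 were called, where 15.3% of all genes were called higher. Marker genes were called higher in the same fit, 7 of 7 for T cells, 3 of 10 for macrophages, 3 of 8 for endothelial cells and 3 of 5 for neutrophils. So were 2 of 4 measured genes of alveolar macrophages and eosinophils and 1 of 3 measured adipocyte genes. The adipocyte gene was Cfd (0.42; limma, adjusted p = 0.0278), at a mean level of 3.35 on the log2 scale. Of 9 stromal and tumor genes 5 were called lower and 1 higher, and no B cell gene was called. The part of these lists in the calls was not tested.

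Cd36 ran from 12.08 through 12.84 to 14.01 in untreated samples, a range that held every T-PNU value. Its difference was 0.57 (SE 0.22; limma, adjusted p = 0.127) with 24 samples and 0.64 (SE 0.17; adjusted p = 0.013) with 20. Plin2 ran from 13.81 through 14.55 to 15.40 in untreated samples, and C1 was again above every T-PNU mouse. Its difference was 0.51 (SE 0.17; limma, adjusted p = 0.0885) with 24 samples and 0.53 (SE 0.12; adjusted p = 0.00529) with 20. With the 4 untreated mice of the 20, Lpl, Cd36, Plin2 and Lipa did not overlap with T-PNU, where 8.03% of all genes lay entirely higher.

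The other members differed from untreated tumors by similar amounts, apart from Msr1. Fabp4 ran from 9.35 through 9.45 to 10.15 in untreated samples and was 0.66 higher in T-PNU (SE 0.26; limma, adjusted p = 0.135), and 3 of 6 T-PNU mice were above every untreated one. Lpl (10.20 to 12.00 in untreated samples) was 0.49 higher, Pparg (7.19 to 9.01) 0.50, Fabp5 (10.38 to 12.06) 0.44 and Lipa (12.56 to 13.85) 0.33, none past the threshold with 24 samples and each past it with 20. Msr1 ran from 13.82 through 14.94 to 15.36 in untreated samples, and only 1 of 6 T-PNU mice was above the untreated median. Its difference was -0.15 (95% interval -0.56 to 0.25) with 24 samples and -0.25 (-0.57 to 0.077) with 20, and it passed the test in neither.

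**Figure D4:**
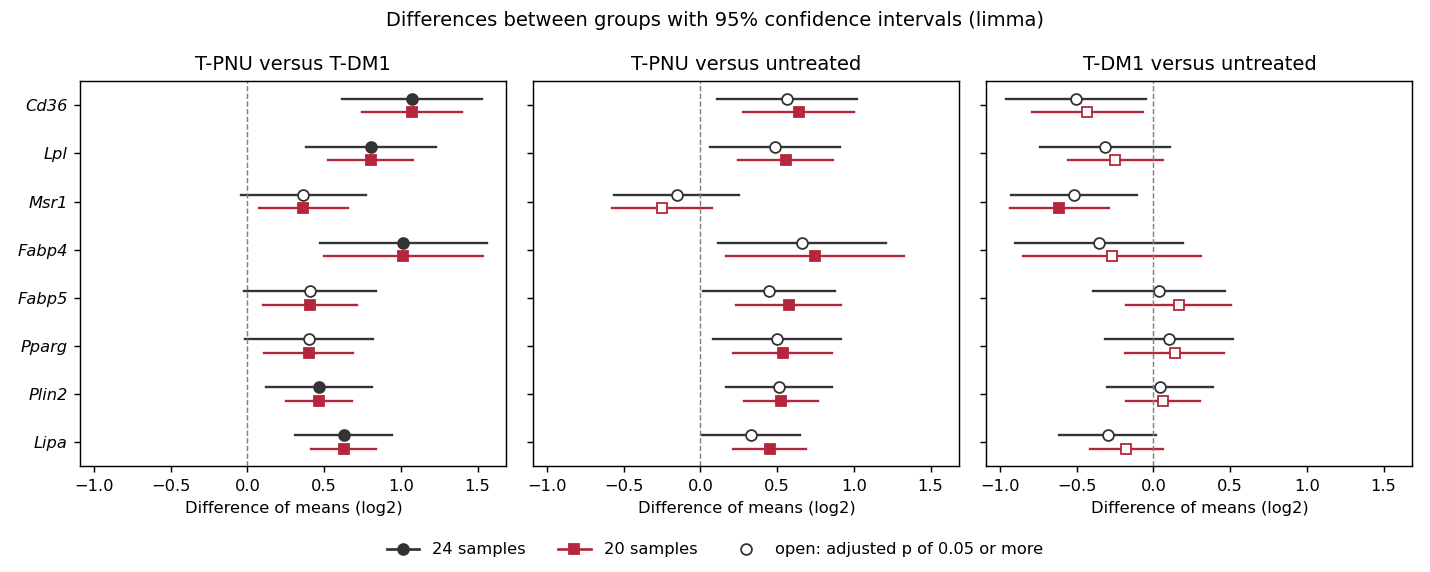
Differences of group means (x axis, log2) with 95% confidence intervals for the 8 genes (y axis) in the comparisons of T-PNU with T-DM1, T-PNU with untreated and T-DM1 with untreated, from 24 samples (black circles) and 20 samples (red squares); filled symbols passed an adjusted p of 0.05. The calls against T-DM1 go from 5 to 8 and those of T-PNU against untreated from 0 to 7 without the other 4 samples, while Msr1 lies below 0 in both comparisons with untreated.

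T-DM1 was compared with untreated tumors on the same control mice. None of the 8 genes passed the test (limma), where 6.27% of all genes were called, 5 had a negative and 3 a positive difference, and 2 had an unadjusted p under 0.05, as did 23.4% of all genes. Those 2 were Cd36 and Msr1. Cd36 differed by -0.51 (95% interval -0.96 to -0.050; limma, adjusted p = 0.165). Msr1 differed by -0.52 (-0.93 to -0.11; adjusted p = 0.111), and all 6 T-DM1 mice were below the untreated median. Msr1 passed without untreated B1 (-0.71; adjusted p = 0.0141), where 3.07% of all genes were called lower, and with the 20 samples (-0.61; adjusted p = 0.0468), where 1.1% were. Fabp4 (-0.35), Lpl (-0.32) and Lipa (-0.30) were lower in the mean and Fabp5 (0.035), Plin2 (0.042) and Pparg (0.10) near 0, each with an interval from below to above 0.

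Trastuzumab was also compared with untreated tumors. None of the 8 genes passed the test (limma), where 0.259% of all genes were called, and none reached an unadjusted p under 0.05, against 8.77% of all genes. The differences ran from -0.16 for Msr1 to 0.28 for Fabp4. Fabp4 spread most within the trastuzumab group, from 9.08 through 9.93 to 10.64, and Plin2 least, from 14.54 through 14.71 to 14.88.

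The conjugates were compared with their unconjugated antibody. T-PNU samples had higher means than trastuzumab samples for all 8 genes by 0.0039 to 0.43, none past the test (limma), where 0.00588% of all genes were called. With the 20 samples Plin2 was called (0.36, adjusted p = 0.029), where 14.6% of all genes were called higher, and Msr1 changed sign to -0.13. T-DM1 samples had lower means than trastuzumab samples for all 8 genes, with differences from -0.64 to -0.023, none past the test (limma), where 0.647% of all genes were called. Cd36 (-0.64), Fabp4 (-0.63), Lpl (-0.54) and Lipa (-0.41) had an unadjusted p under 0.05, as did 15.3% of all genes. In a fit without untreated C1, which is in neither group but enters the shared spread, Cd36 (adjusted p = 0.0478) and Lipa (adjusted p = 0.0364) passed, where 1.4% of all genes were called lower.

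The order of the group means was alike for most genes. T-PNU was first for 7 of 8 genes and trastuzumab second for the same 7, with T-DM1 last for Fabp4, Lpl, Cd36 and Lipa and untreated last for Fabp5, Pparg and Plin2. For Msr1 untreated was first (14.78), then T-PNU (14.62), trastuzumab (14.62) and T-DM1 (14.26). No neighbours in any of these orders differed past the test, 0 of 24 pairs (limma), and 1 of 24 did with the 20 samples.

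The genes varied together across mice. Pearson's r over the 24 samples had a median of 0.80 over all pairs of the 8 genes, which share libraries and groups, and is given as a description. It was highest for Cd36 with Lipa (0.97), Cd36 with Lpl (0.95) and Lpl with Lipa (0.95). Pairs with Msr1 had r from 0.24 (Fabp4) to 0.64 (Cd36), against 0.64 to 0.97 among the other 7 genes. After subtraction of group means the median over all pairs was 0.81, and pairs with Msr1 ran from 0.091 to 0.73 against 0.52 to 0.94 among the others, so the ranges overlapped. Without B1 and C1 the median was 0.76, and pairs with Msr1 ran from -0.0026 to 0.48 against 0.71 to 0.96 among the others. With the 20 samples the median was 0.78, and pairs with Msr1 ran from 0.053 to 0.52 against 0.72 to 0.97.

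The genes most like each member were sought among 8411 genes with a symbol and a level above the median, by r over the 24 samples. For Cd36 these were Tlr8, a receptor for RNA in endosomes (0.96), Rnf130 (0.96) and Slc31a1, a copper transporter (0.96). For Lpl they were Tlr8, Scarb2, a lysosomal membrane receptor, and Creg1 (0.95 each), and for Lipa Creg1 (0.98), Scarb2 (0.96) and Sepp1, a secreted selenoprotein (0.95). For Plin2 they were the lysosomal proteases Ctsb (0.96) and Ctsd (0.96) and the inhibitory receptor Cd300a (0.95), and for Msr1 the integrin chain Itgam (0.96), Milr1 (0.96) and Gusb, a lysosomal glucuronidase (0.95). For Pparg they were Gm5150, Ms4a7 (0.95 each) and Sirpb1a (0.93), for Fabp5 Itm2b (0.93), Cd300a (0.92) and P2rx4 (0.91), and for Fabp4, at lower values, Ctla2a (0.84), Lmbrd1 (0.81) and Casp4 (0.80). With the 20 samples, none of the 3 genes remained for Cd36 and for Fabp4, and all 3 did for Plin2 and Lipa.

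Other genes of lipid handling were read in 5 lists. Between T-PNU and T-DM1, 26 of 77 measured genes passed the test (limma), against 29.8% of all genes, and they did not move one way. Of the 77, 39 passed with the 20 samples, where 6781 of all 16996 genes did. Of 14 genes of fatty acid transport and activation, 1 rose and 6 fell (median -0.21). Acsl1, which activates fatty acids, rose by 0.52. Slc27a3 and Slc27a1, acyl-CoA synthetases of the fatty acid transport family, fell by 1.11 and by 0.58, as did Angptl4, an inhibitor of Lpl (-1.01), and Cav1, the caveolar coat protein (-0.81). Of 12 scavenger receptors, 3 rose and 2 fell. Mrc1, the mannose receptor (0.84), Stab1 (0.64) and Scarb2 (0.53) rose, and Scara5 (-1.04) and Scarb1, the receptor for high-density lipoprotein (-0.35), fell.

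Of 15 measured genes of triglyceride synthesis and lipid droplets, a list without Plin2, none rose and 4 fell with the 24 samples (median 0.036). These were Plin4 (-0.81) and Plin3 (-0.54), droplet coats of the same family as Plin2, and Agpat2 (-0.33) and Gpat4 (-0.19), which act in triglyceride synthesis. Soat1 (0.26, adjusted p = 0.0321), which esterifies cholesterol, and Lpin2 (0.20, adjusted p = 0.0493), a phosphatidate phosphatase, passed as higher with the 20 samples (limma), and 4 genes were lower. Of 18 genes of lipolysis and lysosomal lipid breakdown, 4 rose and 1 fell, and 16 had a positive difference (median 0.19). Mgll, a monoglyceride lipase (0.67), Ctsb (0.53), Psap, the precursor of saposins (0.51), and Mitf (0.45) rose, and Smpd1, acid sphingomyelinase (-0.20), fell. Of 18 measured genes of PPAR receptors, their partners and fatty acid oxidation, 3 rose and 2 fell. Cebpa (0.50), Cpt1a, which commits fatty acids to mitochondrial oxidation (0.45), and Hadhb, a subunit of the mitochondrial trifunctional protein (0.26), rose, while Pdk4 (-0.87) and Ppard, a sister receptor of Pparg (-0.42), fell. With the 20 samples, 1 gene of fatty acid transport and activation was called higher and 7 lower. Higher and lower calls were 4 and 4 for scavenger receptors, 7 and 1 for lipolysis and lysosomal lipid breakdown, and 5 and 4 for the PPAR list.

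**Figure D5:**
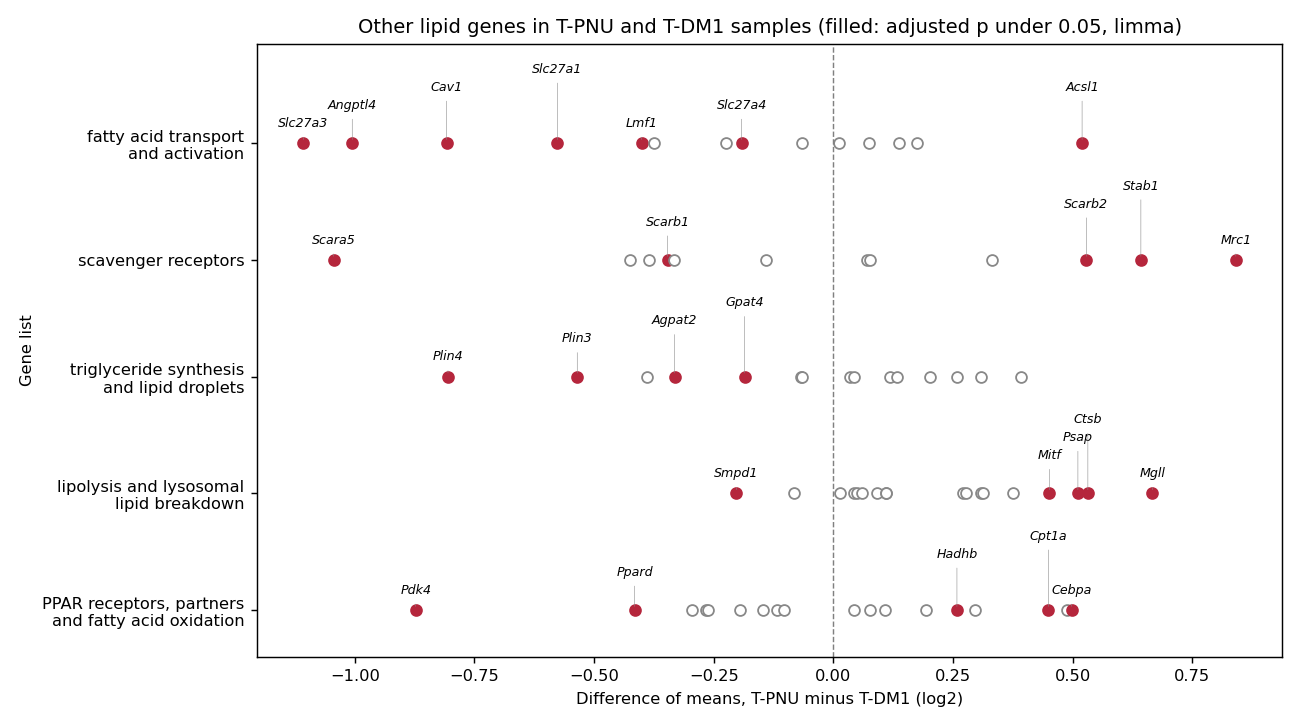
Differences between T-PNU and T-DM1 samples (x axis, log2) for the 77 measured genes of 5 lipid lists (y axis), 1 point per gene; red points passed an adjusted p of 0.05 and are named. Genes lie on both sides of 0 in every list, from -1.11 for Slc27a3 to 0.84 for Mrc1.

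In the same lists 8 of 77 genes passed between T-DM1 and untreated tumors (limma), where 6.27% of all genes were called. None passed between T-PNU or trastuzumab and untreated tumors, where 0.188% and 0.259% of all genes were called. Acsl1 was lower in T-DM1 samples (-0.58), the only one of the 8 that fell. Those that rose included Plin4 (0.78), Scara5 (0.81), Slc27a4 (0.24), Smpd1 (0.26), Ppard (0.56) and Cebpb (0.44). With the 20 samples Acsl1 alone remained called. In that comparison 3 of 9 stromal and tumor genes rose, led by Col1a1 (1.32) and Dcn (1.098), and C1qb (-0.75) was the only one of 10 macrophage genes that fell. Dcn alone of the stromal and tumor genes was called higher with the 20 samples, and C1qb, C1qa (-0.69) and Lyz2 (-0.59) were called lower (limma). Their part in these values was not tested. T-PNU against untreated tumors gave 26 called genes of the 77 with the 20 samples, where 31.1% of all genes were called.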

How the data were processed

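The authors aligned single-end RNA-seq reads with STAR 2.4.2a, counted them per gene by strand with featureCounts (Subread 1.5.0) on mm10, per the submitters' processing notes, and removed genes with few counts. The deposited values are log2 expression normalized by the authors for 16996 genes in 24 samples. The transformation is not given in the sources used here, so no count model was run and fold changes may be shrunken. Groups were taken from the sample labels. The 8 genes, the gene lists and the tests were chosen with earlier results of these data known.

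All 4 groups entered 1 linear model in limma 3.58.1 (R 4.3.3, eBayes with a trend), with no covariate, 6 pairwise comparisons and Benjamini-Hochberg adjustment over all genes, and a call is an adjusted p under 0.05. Comparisons that share a group share its samples. The mice are separate animals, 6 per group. Alternatives were the 20 samples of the heatmaps, quantile normalization, only genes above the median level, fits of 2 groups, sample weights, no variance trend, the thresholds of the study and each mouse left out. Named are all 8 genes, the 3 most similar genes of each, the called list genes (up to 4 per direction) and the 2 largest called differences of each marker list, with Epcam added as the exception in its list, and Soat1, Lpin2, C1qa and Lyz2 named for their 20-sample calls after their values were seen. Of the gene identifiers, 99.6% matched GENCODE M21. Steps were tested on simulated data. Plots used matplotlib 3.10.9 in Python 3.11.15. The value of 1 gene of the lipid lists is not reported here.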

Additional observations from a re-analysis of the deposited data

Results flagged for a closer look

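In 2 of 32 sets of 6 mice (8 genes in 4 groups), the highest or lowest mouse stood apart from the others by Dixon's test at the 95% level, which chance does in about 1 of 20 sets. Both concern Lipa. Untreated C1 stood at 13.85, above the next untreated mouse at 12.94, and the gap was 0.70 of the range of the group against a critical value of 0.625. T-DM1 H3 stood at 13.04, above the next T-DM1 mouse at 12.64, with a gap of 0.68 of the range. Each was also the highest mouse of its group for the other 7 genes.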

How the results depend on the processing

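No paired analysis was possible because the labels tie no mouse of one group to a mouse of another: replicate numbers follow accession order within each group. Without a variance trend no call of the 8 genes changed. With the 20 samples, calls over all genes were 5279 (main 32) for T-PNU and 341 (1065) for T-DM1 and 0 (44) for trastuzumab against untreated, and 4765 (1) for T-PNU against trastuzumab. Among the 8 genes 7, 1, 0 and 1 were called, with 8 for T-PNU against T-DM1, where 6781 of all genes were called. Among the lipid lists 26 were called for T-PNU and 1 for T-DM1 against untreated. Sample weights gave 5827, 3297 and 195 calls for T-PNU, T-DM1 and trastuzumab against untreated. Against trastuzumab the weights gave 2256 for T-PNU and 1232 for T-DM1. In the same order 7, 2, 0, 2 and 3 of the 8 genes were called. For T-PNU against T-DM1 8 of the 8 genes were, where 7583 of all genes were called. Neighbouring groups differed in 1 of 24 pairs with the 20 samples and in 3 with weights (main 0). Quantile normalization gave 0 calls over all genes for T-PNU against untreated and 0 against trastuzumab. Only genes above the median level gave 90 and 27 calls for T-PNU and trastuzumab against untreated, 3003 for T-PNU against T-DM1 (main 5073), and 0 and 4 for T-PNU and T-DM1 against trastuzumab (main 110). Fits of the 2 groups compared gave 0, 621 and 0 calls for T-PNU, T-DM1 and trastuzumab against untreated. Against trastuzumab these fits gave 0 for T-PNU and 424 for T-DM1. For T-PNU against T-DM1 they called 7 of the 8 genes (main 5), where 5581 of all genes were called (main 5073). The thresholds of the study gave 0, 26 and 0 calls against untreated, 325 for T-PNU against T-DM1 with 2 of the 8 genes, and 0 and 12 for T-PNU and T-DM1 against trastuzumab. Shares of higher calls moved by over 10 percentage points under quantile normalization only for T-DM1 against trastuzumab (32.7% to 22.4%) and where no call was left. The causes were not tested.

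Some signs changed. Msr1 in T-PNU against trastuzumab was -0.13 with the 20 samples, -0.030 with quantile normalization, -0.024 with weights and -0.070 relative to the macrophage genes. On that relative scale, which shifts every gene of a comparison alike, Lpl was 0.00074 and Lipa 0.020 in T-DM1 against untreated, Cd36 -0.0023, Pparg -0.013, Plin2 -0.0043 and Lipa -0.028 in trastuzumab against untreated, Fabp5 -0.12, Pparg -0.13, Plin2 -0.060 and Msr1 -0.16 in T-PNU against T-DM1, and Fabp5 0.31, Pparg 0.43, Plin2 0.36, Msr1 0.095 and Lipa 0.048 in T-DM1 against trastuzumab. It left 1 gene called in T-PNU against T-DM1, 1 in T-DM1 against untreated and 2 in T-DM1 against trastuzumab.

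Leaving out 1 mouse at a time, calls over all genes ran from 0 to 2929 for T-PNU, from 419 to 1626 for T-DM1 and from 0 to 97 for trastuzumab against untreated, from 3139 to 5881 for T-PNU against T-DM1, and from 0 to 81 and from 32 to 353 for T-PNU and T-DM1 against trastuzumab. Of the 8 genes, 0 to 6 were called for T-PNU and 0 to 1 for T-DM1 against untreated, 4 to 6 for T-PNU against T-DM1 and 0 to 2 for T-DM1 against trastuzumab. Signs changed for Fabp5 (-0.081 to 0.26), Pparg (-0.066 to 0.30) and Plin2 (-0.11 to 0.21) in T-DM1 against untreated, Cd36 (-0.028 to 0.36), Pparg (-0.043 to 0.32) and Plin2 (-0.019 to 0.30) in trastuzumab against untreated, Msr1 (-0.092 to 0.074) in T-PNU against trastuzumab and Pparg (-0.10 to 0.056) in T-DM1 against trastuzumab. Depth is unknown, so counting error of low genes cannot be given.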

Other observations

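On the scale relative to the 10 macrophage genes, whose mean was 0.32 lower in T-DM1 than in untreated samples and 0.45 lower than in trastuzumab samples, the T-DM1 difference of every gene is higher by that amount. Plin2 was 0.36 above untreated samples on that scale (95% interval 0.14 to 0.58; limma, adjusted p = 0.0406), 1 of the 8 genes called, where 7.91% of all genes were called higher. Against trastuzumab samples 2 of the 8 genes were called, Plin2 at 0.36 (adjusted p = 0.0268) and Pparg at 0.43 (adjusted p = 0.0317), where 31.5% of all genes were called higher, so this count is not a result about the 8 genes. This scale was chosen after seeing the data.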
